A study of Ovis aries with 23 samples.

Results

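The genes described here are 146 genes of cell organization in the sheep pars tuberalis (PT), the part of the pituitary stalk that reads the night-time melatonin signal. The study annotated 1324 genes called in either of its RNA-seq experiments. Of these, 191 carried the category organization, and 147 of them carried none of the categories ER, Golgi and transport, nervous system, development, metabolism or circadian rhythm. With 1 further gene left out by name, 146 remained of the 25197 genes in the count files. Because the annotated genes were themselves called by photoperiod, 63 of the 146 had been listed for a long-day time point of these very samples (4 for day 1, 26 for day 7 and 52 for day 28), and their differences from short days are descriptions. Where such a gene is said below to be called against SPs, this says how the fit classed the values that chose it and is no independent test. The other 83 came from the other experiment alone, so the study had not called them here. A symbol was given for 125 members, and 21 are known by an Ensembl identifier only.

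RNA was sequenced from PT of castrate male Scottish blackface sheep held in artificial light, and the labels describe the animals as neutered males. Age is not given in the labels. The SP group (n = 5) was kept on short photoperiods of 8 h light, for 12 weeks by the name that the gene lists give this control. The LP groups were moved from SPs to long photoperiods of 16 h light and were sampled on LP day 1, LP day 7 and LP day 28 (n = 6 each), so the SP samples are the common control. The labels number the samples within a group without saying that each is a separate animal, and p-values therefore measure only the spread between these samples.

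The study's organization category is broad, and some members carry a term of location or assembly. The term was extracellular vesicular exosome for VMO1 and MXRA5, and extracellular space for CPNE9. It was extracellular region for BPIFC and ANGPTL7, and cellular component assembly for UQCC2. Membership is therefore no evidence of a part in tissue shape. In its narrow sense, cell organization covers the proteins that give a tissue its shape. Secreted and matrix proteins fill the space between cells, adhesion molecules and junctions hold cells to it and to each other, and actin filaments, microtubules and the nuclear lamina carry force and transport inside them. The PT holds thyrotroph cells set among folliculostellate cells, a supporting cell type of the pituitary, and the neighboring median eminence holds glial endfeet and nerve terminals. The members were grouped by known role into secreted factors, hormones and proteases (19 genes), extracellular matrix and its enzymes (22), adhesion and junctions (29), the actin cytoskeleton and motors (19), microtubules, cilia and cell division (14), linker histones (4), ribosomal proteins without a symbol (10) and other genes (29).

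Values are counts scaled to library size (CPM) and adjusted by the trimmed mean of M values (TMM) over all 23 samples. Totals ran from 307952 counts in LP day 1 sample 4 to 4413929, with a median of 3332320. A gene with 3 counts stands at 9.74 CPM in that shallow sample and at no more than 1.62 CPM in any other. Markers of the adjoining pars distalis varied between samples. Prolactin, the product of its lactotrophs, took 2.35 to 21.0% of the counts, and the summed level of 6 pars distalis markers ran from 34994 to 140940 CPM on SPs, 46564 to 271105 on LP day 1, 46515 to 176716 on LP day 7 and 74590 to 272700 on LP day 28. The 6 PT thyrotroph markers summed to 11426 to 13550 CPM on SPs and to 6777 to 15152 CPM over the LP samples. CGA and CHGA gave most of this sum, with means of 8384 and 3384 CPM on SPs. The CHGA mean was 1051 CPM on LP day 28, so the sum is no measure of thyrotroph content alone. In whole tissue, fewer cells of a type and less RNA per cell cannot be told apart.

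The calls among the members came on LP days 7 and 28, and most were of higher values on LPs. A gene was called where edgeR's quasi-likelihood test, with p-values adjusted over every gene tested by the Benjamini-Hochberg method, gave a false discovery rate (FDR) under 0.05. Against SPs this was the case for 0 of 133 members on the first LP day, for 2 of 137 a week in, and for 7 of 137 after 28 days. Of all genes, 0% of 14920, 0.266% of 15030 and 0.67% of 14929 were called in these comparisons. The study chose members on these same comparisons, so nothing is read from the difference between the shares. Unadjusted p was under 0.05 for 13 members on LP day 1 (9.77%, against 3.33% of all genes), and DESeq2 called 0 there as well. Of the 7 genes called on LP day 28, VMO1, BPIFC, KLKB1, ANGPTL7, LMO7 and MXRA5 were higher on LPs (6 genes, beside 0.422% of all genes) and UQCC2 was lower (1 gene, beside 0.248%). BPIFC and KLKB1 passed the filter on low values only through the LP samples in which they were high, so their place among the 7 follows in part from the filter. VMO1 and CPNE9 were called on LP day 7, both higher, beside 0.193% of all genes called higher and 0.0732% called lower. In all, 8 members were called in at least 1 comparison and 138 in none. The median log2 fold change of the members was -0.03, -0.05 and -0.11 on LP days 1, 7 and 28, beside 0.00, -0.01 and -0.01 over all genes.

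The 83 members from the other experiment are the ones whose change here did not choose them, although genes the study had called here were kept out of them. The same edgeR test called 0 of the 75 tested against each LP day. At days 1, 7 and 28, unadjusted p was under 0.05 for 4, 10 and 9 of them, beside the 3.33%, 14.4% and 13.8% of all genes. Nearest to the threshold were CHGB on LP day 7 (FDR 0.0665, edgeR's quasi-likelihood test) and the ribosomal protein gene ENSOARG00000019935 on LP day 28 (FDR 0.0871, same test). DESeq2 with Benjamini-Hochberg adjustment called CHGB and OPCML among them on LP day 7 and ENSOARG00000019935 on LP day 28.

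**Figure D1:**
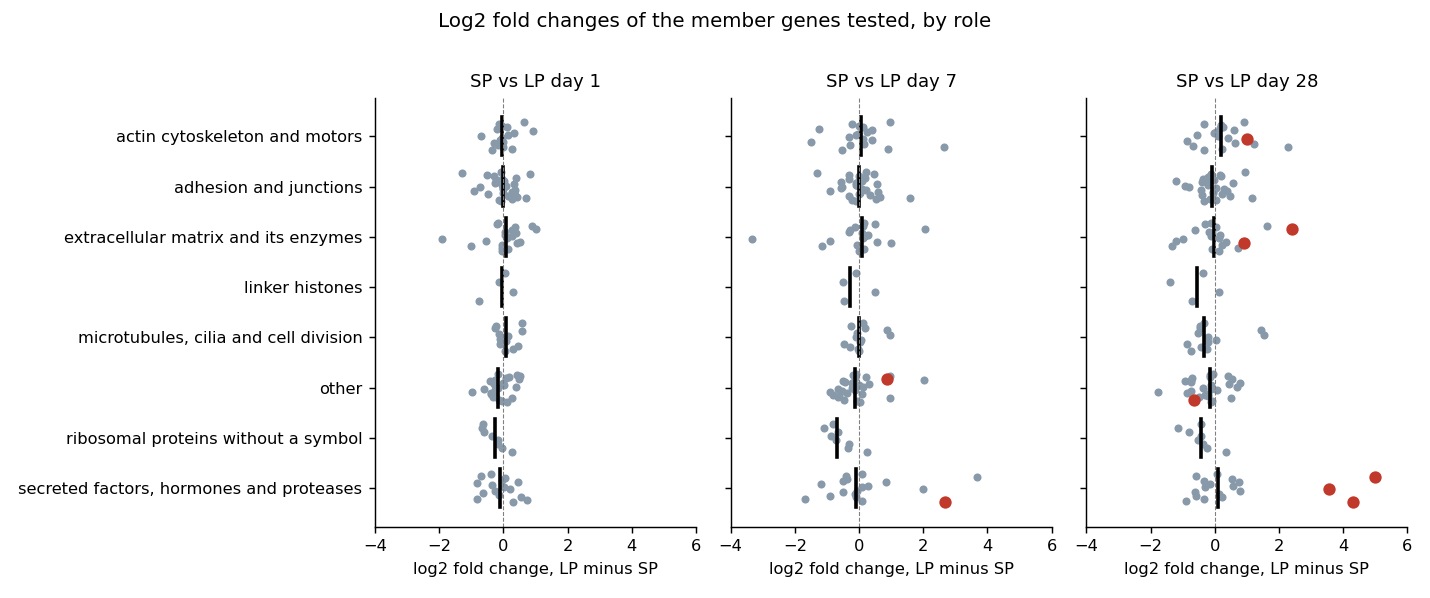
Log2 fold change (LP minus SP) of each member tested, by role, for LP days 1, 7 and 28. Each point is a gene, black bars are medians of a role, and larger red points are the 2 genes called on LP day 7 and the 7 called on LP day 28. On LP days 7 and 28 the highest points are secreted factors, and the 8 ribosomal protein genes have medians of -0.25, -0.68 and -0.42.

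Successive LP days were not used to choose the members, although the same LP samples served in the comparisons that were. Between LP days 1 and 7, 1 of 137 members was called by edgeR's quasi-likelihood test, beside 0.0201% of 14897 genes. Between LP days 7 and 28, 0 of 139 were called, beside 0.00672% of 14890 genes. Unadjusted p was under 0.05 for 19 members in the first step (13.9%, against 5.56% of all genes) and for 29 in the second (20.9%, against 7.13%). Among members listed for an LP day of these samples the shares were 21.0% and 30.2%. Among those from the other experiment alone they were 8% and 13.2%. The listed members were chosen with these LP samples, so nothing is read from the shares. DESeq2 called 1 and 2 members in these steps.

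Among the secreted factors, 3 of 18 tested were called higher on LP day 28 (0.422% of all genes) and 1 on LP day 7 (0.193%). VMO1, a secreted homolog of an egg yolk membrane protein, had 15.1, 10.5, 15.6, 8.75 and 11.6 CPM in the 5 SP samples. It ran at 5.34 to 23.7 CPM (median 16.4) on LP day 1, 29.2 to 152 CPM (median 68.8) on LP day 7 and 145 to 314 CPM (median 272) on LP day 28. Every LP day 7 and LP day 28 sample lay above every SP and every LP day 1 sample, while LP days 7 and 28 overlapped with each other, as did SPs and LP day 1. This gave log2 fold changes from SPs of 2.69 ± 0.35 (SE) on LP day 7 and 4.32 ± 0.23 on LP day 28. At LP day 7 the samples with even numbers had 152, 108 and 72.4 CPM and those with odd numbers 53.9, 29.2 and 65.2 CPM. Odd and even samples were free of overlap for 15.2% of all genes on that day, and the split of VMO1 did not appear on LP day 28. The step from LP day 1 to LP day 7 passed the test (FDR 0.0301, edgeR's quasi-likelihood test), but held in only 4 of 12 fits that left out 1 sample, and failed without any 1 of LP day 1 samples 1, 2, 3, 4 or 6 or LP day 7 samples 4, 5 or 6, or with samples 3 and 4 of LP day 1 summed, and over all alternatives the FDR (same test or DESeq2) ran from 5.13e-05 to 0.138 and the log2 fold change from 2.12 to 2.63. For no other member were LP days 1 and 7 free of overlap, beside 0.269% of all genes.

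BPIFC, a lipid-binding secreted protein of the BPI fold family, was close to absent before LP day 7. Its values were 0.265, 0, 0.577, 0 and 0 CPM in the SP samples, from 3 counts in all. It was at 0 in 5 of 6 samples on LP day 1, ran at 0.301 to 5.91 CPM (median 2.49) on LP day 7 and at 3.39 to 8.81 CPM (median 6.94) on LP day 28. The LP day 28 samples held 7 to 31 counts each and all lay above every SP sample, whereas 1 LP day 7 sample lay within the SP range. Per total counts, LP day 28 stood at 37.2 times SPs (95% interval 12.5 to 183, covering counting error only) and LP day 7 at 15.8 times (5.13 to 78.7). The gene passed the filter on low values only through its LP samples.

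KLKB1, plasma prekallikrein, the protease precursor that frees bradykinin from kininogen, had 2.12, 0, 1.44, 0 and 0 CPM on SPs and was at 0 in 3 of 5 samples. It ran at 0 to 2.54 CPM (median 0.468) on LP day 1, 0 to 5.35 CPM (median 3.50) on LP day 7 and 4.16 to 18.4 CPM (median 9.28) on LP day 28. All LP day 28 samples were above all SP samples, and the ratio per total counts was 10.8 (6.17 to 20.8, counting error only). Like BPIFC it passed the filter only through its LP samples, and with the sample number as a block it was no longer called. Its relative F11, coagulation factor XI, was under the filter in every comparison, with at most 1.37 CPM in any sample.

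LUZP2, a secreted leucine zipper protein listed from the other experiment, was the member that separated LP days 7 and 28 upward. It had 6.89, 18.6, 31.2, 27.9 and 22.6 CPM on SPs and 5.93 to 41.9 CPM (median 24.2) on LP day 1. It then ran at 13.0 to 31.0 CPM (median 20.4) on LP day 7 and at 31.5 to 44.7 CPM (median 36.3) on LP day 28. The lowest LP day 28 sample exceeded the highest SP sample and the highest LP day 7 sample, although some LP day 1 samples lay in the same range. Its change was 0.78 ± 0.25 on the log2 scale from SPs (FDR 0.164) and 0.84 ± 0.17 from LP day 7 (FDR 0.128, both by edgeR's quasi-likelihood test). Groups did not overlap between LP days 7 and 28 for 2 of 139 members, beside 0.363% of all genes. LUZP2 was higher on LP day 28 (1 gene, beside 0.141% of all genes) and BEND7 was lower (1 gene, beside 0.222%).

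CHGB, chromogranin B, packs hormones into secretory granules. Its values were 3259, 3435, 2973, 3578 and 2876 CPM on SPs, 1751 to 3952 CPM (median 3328) on LP day 1, 1910.3 to 3059 CPM (median 2257) on LP day 7 and 2079 to 3251 CPM (median 2467) on LP day 28. Of the 6 LP day 7 samples, 5 lay under the lowest SP sample, and the log2 fold change of -0.50 ± 0.11 did not pass the threshold in edgeR's quasi-likelihood test (FDR 0.0665). CPD, carboxypeptidase D, trims prohormones in the trans-Golgi and went the other way. It had 14.8, 16.3, 18.2, 23.3 and 22.01 CPM on SPs, 18.4 to 47.0 CPM (median 33.7) on LP day 7 and 22.9 to 43.7 CPM (median 30.6) on LP day 28, with log2 fold changes of 0.83 ± 0.20 and 0.77 ± 0.18. The edgeR test called neither, whereas DESeq2 called both.

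CXCL16, a membrane-bound chemokine that can be shed, showed a pattern by sample number within the LP days. On SPs it had 104, 71.1, 90.3, 105 and 78.2 CPM, and on LP day 1 it ran at 60.6 to 79.4 CPM (median 70.7). At LP day 7 the odd-numbered samples had 166, 117 and 140.0 CPM, and the even-numbered ones 70.9, 79.7 and 77.5 CPM. At LP day 28 the same split gave 212, 131 and 232 against 81.5, 70.0 and 80.7 CPM. The even-numbered samples of these days lay within the SP range or just under it, and the odd-numbered ones above every SP sample.

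The labels give no meaning to odd and even numbers. The clock gene CRY1, which is no member, was at 16.9 to 29.3 CPM in the odd-numbered samples of LP days 7 and 28 and at 138 to 302 CPM in the even-numbered ones. It was also low in SP samples 1 and 3 and in LP day 1 samples 1 and 6. EYA3, a photoperiod-driven gene of the PT, was at 123 to 969 CPM in those odd-numbered samples and at no more than 75.6 CPM in any other. Among members, 22 of 139 had odd and even samples that did not overlap on LP day 7 (15.2% of all genes) and 19 on LP day 28 (14% of all genes). At LP day 7, 12 were higher in odd numbers (7.78% of all genes) and 10 in even numbers (7.37%), while on LP day 28 these were 12 (7.12%) and 7 (6.86%). Both days gave the same direction for 4 members, beside 2.16% of all genes. CXCL16, the actin-binding AFAP1 and the adhesion protein IGLON5 were higher in odd numbers (3 genes, beside 1.3% of all genes) and the tektin TEKT1 in even numbers (1 gene, beside 0.86%).

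**Figure D2:**
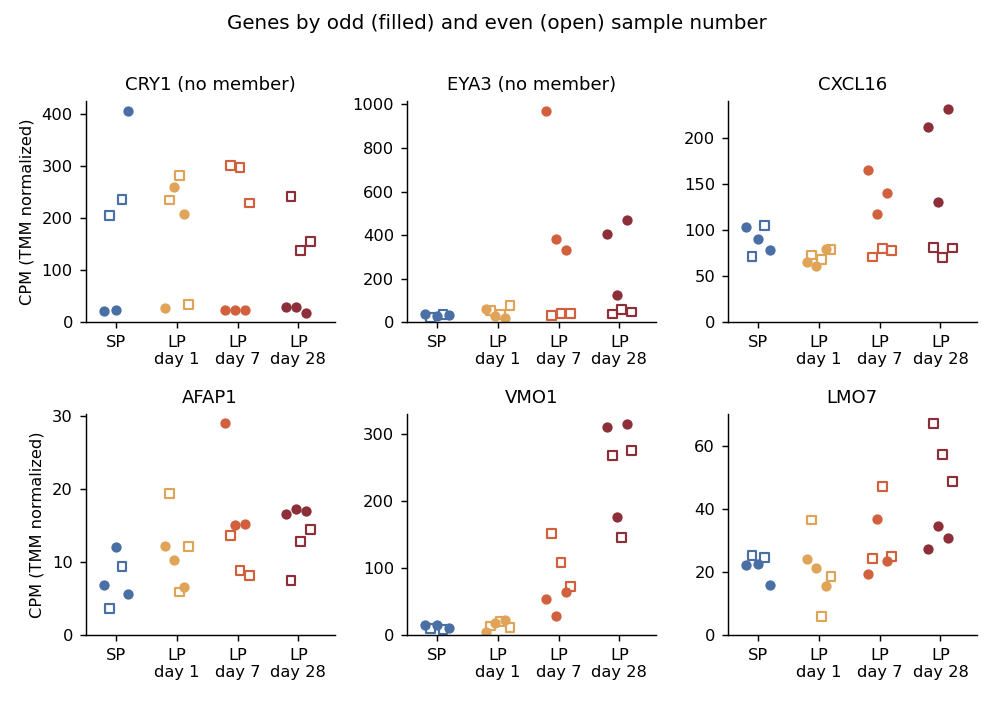
CPM of CRY1, EYA3 and 4 member genes in every sample, with odd sample numbers as filled circles and even ones as open squares. The vertical axes are linear and start at 0. CXCL16 splits by number on LP days 7 and 28, VMO1 on LP day 7 and LMO7 on LP day 28. Of all genes, 15.2% split on LP day 7 and 14% on LP day 28.

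Hormones and carriers of the same role varied strongly between samples of a group. TTR, the thyroid hormone carrier made in bulk by choroid plexus, had 9.53, 21.3, 43.6, 4.21 and 53.9 CPM on SPs and ran at 0 to 116 CPM (median 18.4), 5.37 to 89.9 CPM (median 16.6) and 3.76 to 29.6 CPM (median 9.49) on LP days 1, 7 and 28. The only other choroid plexus marker that could be paired, KCNJ13, stayed between 0 and 11.5 CPM, and its part in the TTR values was not tested. RLN3, the neuropeptide relaxin-3, had 1.59, 1.69, 18.2, 3.56 and 31.0 CPM on SPs, and overlapped with every LP day. KISS1, the kisspeptin precursor, had 3.18, 32.8, 28.0, 11.7 and 22.01 CPM on SPs and a log2 fold change of -0.30 ± 0.42 on LP day 28. Members named outside the rule given with the methods, such as these 3, were chosen after their values were seen.

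In the extracellular matrix, 2 of 20 members tested were called, both higher on LP day 28 (0.422% of all genes). ANGPTL7, an angiopoietin-like protein secreted into the matrix, had 4.50, 3.39, 2.02, 5.51 and 3.67 CPM on SPs and ran at 2.81 to 13.2 CPM (median 8.27) on LP day 1, 4.64 to 33.8 CPM (median 12.1) on LP day 7 and 5.13 to 29.3 CPM (median 22.5) on LP day 28. Of the 6 LP day 28 samples, 5 lay above the SP range, and sample 2, with 5.13 CPM, lay inside it. On the log2 scale the fold change was 2.40 ± 0.37 on LP day 28 and 2.06 ± 0.49 on LP day 7. At LP day 7 the even-numbered samples had 33.8, 16.9 and 27.1 CPM, and the odd-numbered ones 4.64, 6.92 and 7.38 CPM. The latter lay in the SP range or above it. Odd and even samples were also free of overlap for 15.2% of all genes on LP day 7, and ANGPTL7 did not split on LP day 28.

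MXRA5, a secreted protein of matrix remodeling, had 40.8, 25.7, 50.5, 35.0 and 42.6 CPM on SPs and 38.6 to 69.0 CPM (median 49.8) on LP day 1. It ran at 55.8 to 119.6 CPM (median 63.4) on LP day 7 and 49.5 to 92.1 CPM (median 77.1) on LP day 28. Every LP day 7 sample was above every SP sample, while 1 LP day 28 sample fell just under the highest SP sample. The log2 fold change was 1.00 ± 0.22 on LP day 7 and 0.92 ± 0.18 on LP day 28. The call on LP day 28 was lost without SP sample 2 or 4 or LP day 28 sample 2, 5 or 6, and with library-size scaling, the number as a block or SP samples 2, 3 and 5 alone, while its log2 fold change ran from 0.81 to 1.03 across the alternatives.

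Other matrix members were not called by edgeR's quasi-likelihood test, and their values ran in both directions. DESeq2 called PODN on LP day 28 and EGFL6 on LP day 7. PODN, a small leucine-rich proteoglycan that binds collagen, had 23.04, 31.8, 24.8, 34.4 and 21.2 CPM on SPs and 29.6 to 60.5 CPM (median 45.9) on LP day 28, with a log2 fold change of 0.73 ± 0.18. Of its 6 LP day 28 samples, 5 lay above the SP range. ADAMTS14, which cleaves the propeptide of fibrillar collagens, had 0.564 to 2.27 CPM (median 1.32) on SPs and 1.03 to 9.08 CPM (median 3.57) on LP day 28, a log2 fold change of 1.63 ± 0.53. EGFL6, a basement membrane protein with EGF repeats, had 0.265, 26.1, 56.3, 30.8 and 10.7 CPM on SPs and 0.343 to 8.32 CPM (median 1.25) on LP day 7. Its log2 fold change of -3.34 ± 0.77 was the farthest below 0 of the members tested on LP day 7, but SP sample 1 was lower than every LP day 7 sample. OTOL1, a collagen-like protein known from the inner ear, spread from 2.40 to 333 CPM over the 23 samples, with SP values of 157, 178, 50.8, 98.2 and 333 CPM.

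TNXB and SPON1, from the other experiment, differed from SPs by less than their spread. TNXB, tenascin X, had a mean of 131 ± 15.8 CPM (SD, n = 5) on SPs and 146 ± 18.6 CPM (SD, n = 6) on LP day 28, a log2 fold change of 0.15 ± 0.11 (FDR 0.585, edgeR's quasi-likelihood test). SPON1, a secreted protein of the floor plate and of axon adhesion, had 105 ± 21.9 CPM (SD, n = 5) and 98.6 ± 19.3 CPM (SD, n = 6), a log2 fold change of -0.10 ± 0.15 (FDR 0.822, same test). Over the 20 matrix members tested, 10 were higher and 10 lower on LP day 28, with a median of -0.03.

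A separate list of 28 matrix genes, most of them interstitial collagens and glycoproteins, could be paired for 9 genes. Pairing ran through the study's lists of genes it had called by photoperiod, so these 9 are not a neutral sample of the list, and their counts support nothing. The edgeR test called 0 of the 9 in any of the 5 comparisons. At LP day 28, 6 of 9 were higher, the median log2 fold change was 0.33, and unadjusted p was under 0.05 for 5 of them, beside 13.8% of all genes. COL5A2, a chain of type V collagen, had a log2 fold change of 1.07 ± 0.24. The 5 of 6 fibroblast and meningeal markers that could be paired, 3 chains of type I and III collagen with DCN and LUM, are all on that list. Their summed level was 1507 to 2656 CPM on SPs (median 1823) and 2069 to 2940 CPM on LP day 28 (median 2376), with ranges on LP days 1 and 7 of 1686 to 2198 and 1449 to 2436 CPM. The part of these cells in the MXRA5 and ANGPTL7 values was not tested.

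**Figure D3:**
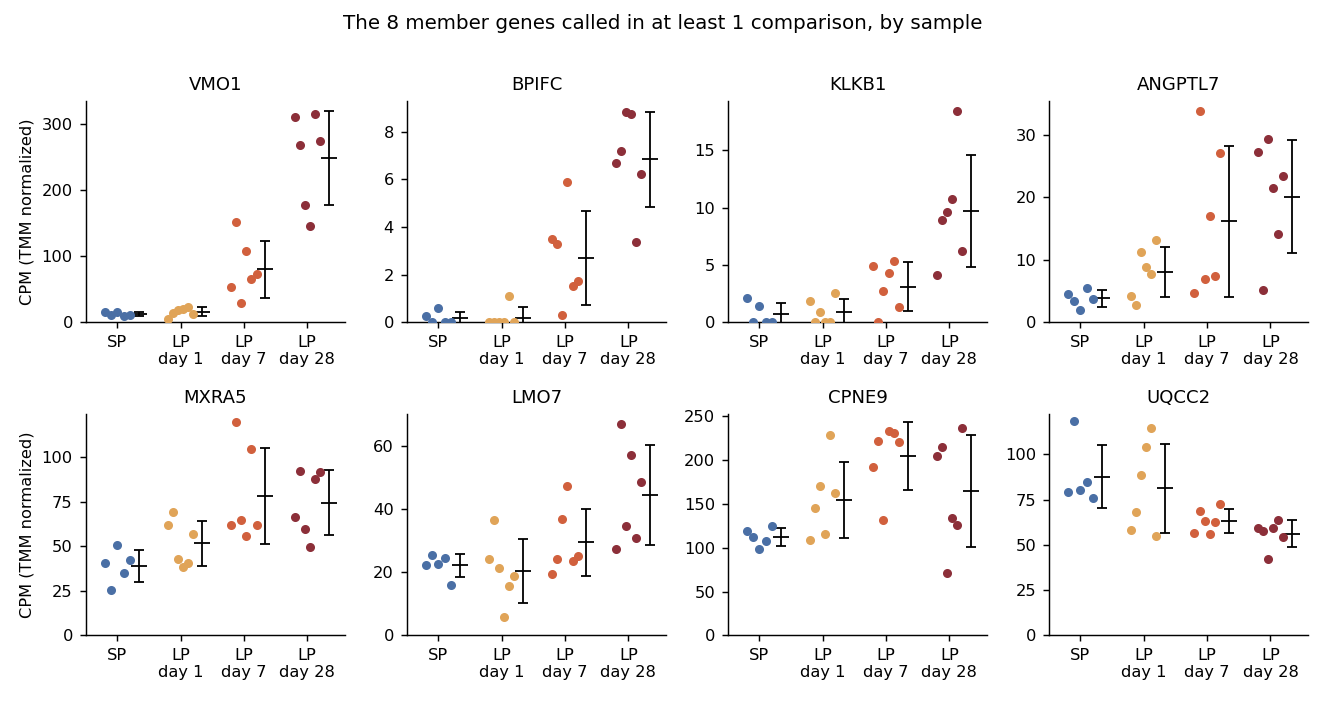
CPM of the 8 members called in at least 1 comparison, for every sample by group. Points are samples, and the horizontal and vertical bars give the mean and SD (n = 5 on SPs, n = 6 on each LP day). Each vertical axis is linear and starts at 0. Samples do not overlap with SPs for VMO1 and UQCC2 on LP days 7 and 28, for MXRA5 and CPNE9 on LP day 7, and for BPIFC, KLKB1 and LMO7 on LP day 28.

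Among adhesion and junction genes, 0 of 28 members tested were called on LP day 28 by edgeR's quasi-likelihood test. For 6 of them unadjusted p was under 0.05, beside 13.8% of all genes. DESeq2 called ICAM3, which the study had listed for that day. ICAM3, a ligand of leukocyte integrins, had 30.7, 16.3, 28.9, 21.1 and 18.6 CPM on SPs, 9.83 to 21.4 CPM (median 12.5) on LP day 1, 10.8 to 20.6 CPM (median 16.5) on LP day 7 and 4.79 to 15.98 CPM (median 13.1) on LP day 28. All LP day 28 values lay below the lowest SP value, and the log2 fold change was -0.94 ± 0.25. Groups did not overlap between SPs and LP day 28 for 8 of 137 members, beside 1.98% of all genes, with 5 higher (1.11%) and 3 lower (0.871%) on LPs.

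The leukocyte genes ITGAL and CD6 were highest in single samples of several groups. ITGAL, the alpha chain of the integrin that binds ICAM3, was highest in SP sample 4 (43.4 CPM), LP day 28 sample 5 (32.0 CPM) and LP day 7 sample 4 (20.9 CPM). CD6, a T-cell surface receptor, had 13.0, 14.5 and 5.91 CPM in the same 3 samples. PTPRC, the common leukocyte antigen and no member, was also highest in these 3, at 91.7, 87.6 and 68.5 CPM. The 5 samples highest in PTPRC were also the 5 highest of GSDMD, a member grouped with the other genes. Of these 5 samples, 4 were among the 5 highest of ITGAL and 3 among those of CD6. ARMC3, OTOS, HIST1H1E and DOCK10 shared 3 as well. For ICAM3 and the actin-bundling LCP1 this number was 2, and for the integrin chain ITGA4 it was 1. The summed level of the 2 of 6 immune markers that could be paired was 17.3 to 119 CPM on SPs, 26.9 to 35.6 on LP day 1, 26.5 to 81.6 on LP day 7 and 39.01 to 108 on LP day 28. Their part in the ICAM3 difference was not tested, and ICAM3 itself had 21.1 CPM in SP sample 4, the third highest of the 5 SP samples.

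For CLDN7, TMEM8A and PANX1, SPs and LPs overlapped. CLDN7, a claudin of epithelial tight junctions, had 94.6, 77.5, 57.4, 58.3 and 45.7 CPM on SPs. At LP day 28 its odd-numbered samples had 119, 106 and 97.8 CPM and its even-numbered ones 50.3, 40.0 and 47.9 CPM. The group thus spread from below to above the SP range, and 14% of all genes split by number on that day. TMEM8A, a membrane protein, had 64.7 ± 22.5 CPM (SD, n = 5) on SPs and 66.7 ± 12.2 CPM (SD, n = 6) on LP day 28. PANX1, a channel of the pannexin family, had 1.06, 1.02, 1.15, 2.59 and 1.69 CPM on SPs and 2.40 to 6.71 CPM (median 4.25) on LP day 7. Its log2 fold change there was 1.60 ± 0.37, with 1 LP day 7 sample inside the SP range. DESeq2 called PANX1 on LP day 7, and edgeR's quasi-likelihood test did not.

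The IgLON family, neuronal adhesion proteins anchored by lipid, had 3 members, all from the other experiment. OPCML had 28.9, 20.3, 35.2, 25.6 and 42.0 CPM on SPs and 39.4 to 63.5 CPM (median 46.9) on LP day 7, and 4 of the 6 LP day 7 samples exceeded the highest SP sample. Its log2 fold change was 0.65 ± 0.17 (FDR 0.109, edgeR's quasi-likelihood test). NEGR1 and IGLON5 had log2 fold changes of 0.35 ± 0.34 and 0.10 ± 0.16 on LP day 7, with an FDR (same test) of 0.683 and 0.835.

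Several members, some of them brain-type genes, had their highest values in the same samples. The 5 samples with most GFAP, the filament protein of astrocytes and of some folliculostellate cells, were SP sample 3, LP day 1 samples 1 and 5 and LP day 7 samples 1 and 6. At least 4 of these samples were among the 5 highest of 10 of 139 members, beside 1.72% of 14890 genes. They were AK5, BCAN, BCAS1, CPNE7, GPNMB, OMG, PHACTR3, TTYH1, TUBB4A and VWA3A. Other members described here as neuronal shared fewer of the 5 samples. OPCML and BHLHB9 shared 3, NEGR1 and GPRIN1 shared 2, and IGLON5 shared 1. MBP, the myelin basic protein, had the same overlap with 2 members and 0.705% of genes, and PTPRC with 2 members and 0.531% of genes.

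BCAN, brevican, a proteoglycan of the matrix around brain cells, had 17.2, 62.0, 145, 36.9 and 123 CPM on SPs and ran at 15.9 to 220.0 CPM (median 54.5), 29.5 to 111 CPM (median 58.6) and 25.7 to 79.4 CPM (median 48.0) on LP days 1, 7 and 28. OMG, a myelin glycoprotein that limits axon growth, had 1.32, 6.77, 31.4, 3.89 and 12.4 CPM on SPs and 0.968 to 14.1 CPM (median 9.13) on LP day 28. TUBB4A, a beta-tubulin of brain, had 13.5, 26.7, 77.3, 19.8 and 61.2 CPM on SPs and 11.6 to 51.1 CPM (median 31.8) on LP day 28. The log2 fold changes on LP day 28 were -0.63 ± 0.39, -0.41 ± 0.57 and -0.25 ± 0.39, and the groups overlapped for all 3 genes. GFAP itself had 97.7, 243, 623, 208 and 476 CPM on SPs and 189.8 to 416 CPM (median 267) on LP day 28, and MBP had 18.5, 20.0, 118, 37.9 and 49.4 CPM and 22.8 to 62.4 CPM (median 29.6).

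TTYH1, a tweety-family membrane protein of glia, had 106, 99.9, 106, 46.0 and 101 CPM on SPs and 56.9 to 97.7 CPM (median 71.5) on LP day 28, a log2 fold change of -0.33 ± 0.18 (FDR 0.45, edgeR's quasi-likelihood test). All SP samples but sample 4 lay above every LP day 28 sample. The summed level of the 3 of 5 folliculostellate and glial markers that could be paired was 887 to 1877 CPM on SPs, 719 to 1987 on LP day 1, 841 to 1471 on LP day 7 and 1023 to 1345 on LP day 28. The 2 of 6 oligodendrocyte markers, of which OMG is a member, summed to 19.9 to 149, 14.7 to 306, 25.8 to 96.4 and 23.7 to 73.2 CPM, and the 1 of 5 neuronal markers, STMN2, to 96.7 to 234, 90.3 to 213, 97.2 to 177 and 60.0 to 165 CPM. The part of these cells in the members' values was not tested.

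**Figure D4:**
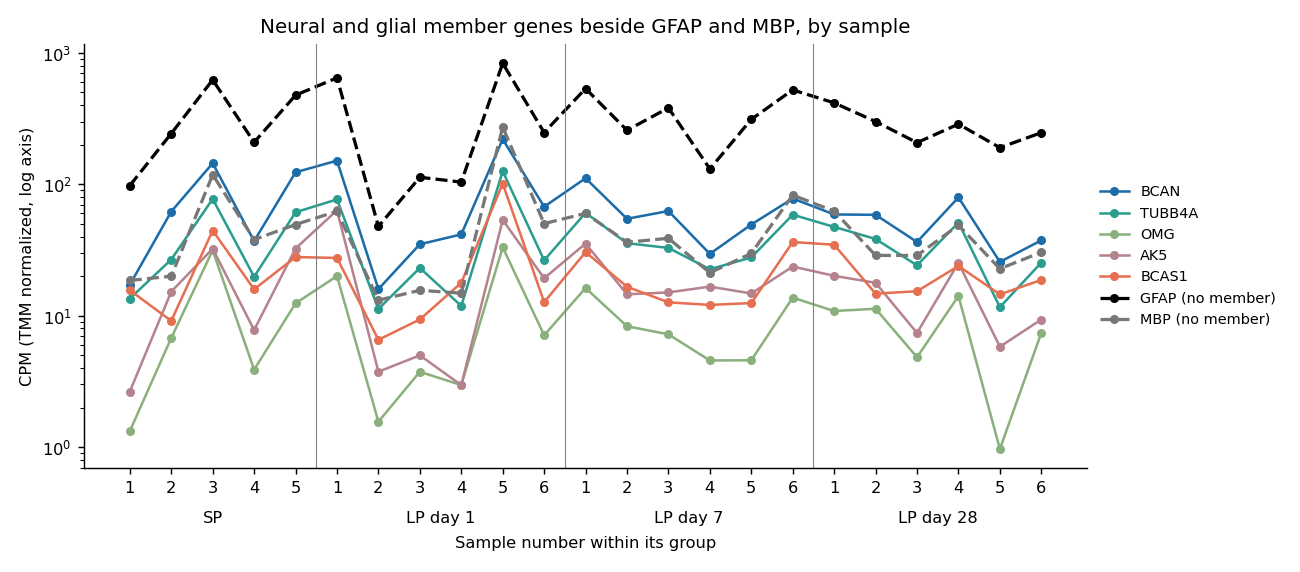
CPM on a log axis of 5 brain-type members in each of the 23 samples, with GFAP and MBP, which are no members, as dashed lines. Vertical lines part the groups, and lines join samples only to guide the eye. GFAP was highest in SP sample 3, LP day 1 samples 1 and 5 and LP day 7 samples 1 and 6. Each of the 5 members had 4 of these samples, not all 5, among its own 5 highest. All are among the members picked out in the text by this overlap, so it is no separate result.

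In the actin cytoskeleton, 1 of 19 members tested was called on LP day 28, beside 0.422% of all genes called higher. Values there were higher for 13 of 19 (median 0.20), beside 7333 of 14929 genes. LMO7, which links actin to adherens junctions and has a nuclear role with emerin, had 22.2, 25.4, 22.5, 24.6 and 16.1 CPM on SPs and 5.93 to 36.5 CPM (median 20.0) on LP day 1, where the lowest value came from the shallow sample 4. It ran at 19.4 to 47.3 CPM (median 24.7) on LP day 7 and 27.5 to 67.1 CPM (median 41.7) on LP day 28. All LP day 28 samples lay above all SP samples, and the log2 fold change was 1.00 ± 0.22. The even-numbered LP day 28 samples had 67.1, 57.2 and 48.7 CPM and the odd-numbered ones 27.5, 34.7 and 31.0 CPM, a split that 14% of all genes showed on that day. The call held in 2 of 11 fits that left out 1 sample, those without LP day 28 sample 1 or 5, and was lost without LP day 28 sample 2, 3, 4 or 6 or any 1 SP sample. It was also lost with library-size scaling, a single fit of all groups, the number as a block or SP samples 2, 3 and 5 alone, while its log2 fold change ran from 0.84 to 1.10 across the alternatives.

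Other actin genes were not called by edgeR's quasi-likelihood test, whereas DESeq2 called MYH15 on LP day 7. LCP1, an actin-bundling plastin of leukocytes, had 99.3, 93.8, 98.1, 201 and 91.7 CPM on SPs and 112 to 184 CPM (median 159) on LP day 28. Sample 4, the SP sample richest in PTPRC, gave the highest LCP1 of all 23 samples, and the other 4 SP samples lay under every LP day 28 sample. DMTN, dematin, and EPB41L2, of the protein 4.1 family, tie the membrane to spectrin and actin and had log2 fold changes of -0.33 ± 0.15 and -0.03 ± 0.11 on LP day 28 (FDR 0.335 and 0.932, edgeR's quasi-likelihood test). MYH15, a myosin heavy chain, had 5.03, 5.76, 3.75, 7.45 and 8.75 CPM on SPs and 1.03 to 4.06 CPM (median 1.84) on LP day 7, where 5 of 6 samples lay under the SP range (log2 fold change -1.49 ± 0.36). STRC, stereocilin of hair cell bundles, had 4 counts on SPs, all in sample 1, and 34 on LP day 7, a ratio per total counts of 7.06 (95% counting interval 2.52 to 27.4). The study had listed STRC for LP day 7 here, and it passed the filter only through its LP samples. The ratio therefore describes values that chose the gene and is no test.

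The actin list fixed for comparison could be paired for 1 of 23 genes, ACTB, whose log2 fold change was -0.27, -0.42 and -0.07 on LP days 1, 7 and 28, and edgeR's quasi-likelihood test called it in none of the 5 comparisons (unadjusted p under 0.05 in 0). The lists for tubulins and motile cilia (DNAH5, 1 of 20 genes) and for adhesion and junctions (CLDN11 and L1CAM, 2 of 24 genes) gave 0 calls as well. Unadjusted p was under 0.05 only for CLDN11, on LP day 28 against SPs (13.8% of all genes) and against LP day 7 (7.13%). DESeq2 was not summarised over these lists.

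Among genes of microtubules, cilia and cell division, 3 of 13 tested were higher and 10 lower on LP day 28, beside 7333 and 7596 of 14929 genes. Their median was -0.32, with 0 calls by edgeR's quasi-likelihood test. For 4 of them unadjusted p was under 0.05, beside 13.8% of all genes. DESeq2 called TEKT1, which the study had listed for that day. TEKT1, a tektin inside the doublet microtubules of cilia, had 22.8, 37.2, 19.6, 31.1 and 21.4 CPM on SPs, 14.8 to 33.7 CPM (median 22.96) on LP day 1, 15.9 to 22.02 CPM (median 18.9) on LP day 7 and 10.2 to 23.6 CPM (median 13.8) on LP day 28. Of the 6 LP day 28 samples, 5 lay under the SP range, for a log2 fold change of -0.86 ± 0.23. SPAG17, of the central pair of motile cilia, had 36.3, 34.2, 29.1, 30.1 and 19.7 CPM on SPs and 17.9 to 36.0 CPM (median 25.2) on LP day 28, a log2 fold change of -0.20 ± 0.18 (FDR 0.685, same test). These 2 genes are also the only paired markers of 8 for multiciliated ependymal cells, and their sum was 41.2 to 71.4 CPM on SPs, 47.0 to 76.8 on LP day 1, 41.1 to 58.1 on LP day 7 and 33.5 to 53.0 on LP day 28.

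SUN1, which couples the nuclear envelope to the cytoskeleton, differed by less than the spread within a group. Its mean was 354 ± 85.8 CPM (SD, n = 5) on SPs and 329 ± 40.0 CPM, 368 ± 42.9 CPM and 362 ± 39.8 CPM (SD, n = 6 each) on LP days 1, 7 and 28. Its log2 fold change on LP day 28 was 0.03 ± 0.13 (FDR 0.952, edgeR's quasi-likelihood test). CCNB2, cyclin B2, and KIF15, a spindle kinesin, stood at 0.677 to 2.59 CPM (median 1.06) and 0 to 2.27 CPM (median 0.282) on SPs and at 1.71 to 5.33 CPM (median 3.55) and 0.39 to 3.70 CPM (median 1.83) on LP day 28. Their log2 fold changes of 1.45 ± 0.45 and 1.54 ± 0.68 rested on few counts per sample. The study had listed both for LP day 28 here, and KIF15 passed the filter only through its LP samples. The summed level of MKI67 and TOP2A, the 2 of 4 division markers that could be paired, was 6.43 to 26.6 CPM on SPs, 5.07 to 29.1 on LP day 1, 15.6 to 25.0 on LP day 7 and 15.7 to 31.5 on LP day 28.

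Linker histones bind DNA between nucleosomes and compact chromatin, and transcripts of the replication-dependent kind largely lack a poly(A) tail. Of the 4 members, 3 were lower and 1 higher on LP day 28, with a median of -0.54, beside -0.01 over all genes. HIST1H1C had 5.56, 9.82, 4.90, 10.7 and 12.7 CPM on SPs, 3.64 to 11.9 CPM (median 9.84) on LP day 1, 4.33 to 9.50 CPM (median 5.76) on LP day 7 and 2.05 to 5.46 CPM (median 3.07) on LP day 28. Of the 6 LP day 28 samples, 5 lay under the SP range, for a log2 fold change of -1.39 ± 0.32. This fell just short of the threshold (FDR 0.0503, edgeR's quasi-likelihood test), whereas DESeq2 called it. It was also called with library-size scaling, no filter, a single fit of all groups or the odd or even covariate. With the number as a block, the CRY1 covariate or SP samples 2, 3 and 5 alone it was not called. Among the fits that left out 1 sample, it was called only without SP sample 1 and without SP sample 3. Between LP days 7 and 28 the log2 fold change was -0.90 ± 0.29 (FDR 0.496, edgeR's quasi-likelihood test).

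For the other linker histones SPs and LP day 28 overlapped. HIST1H1E had 2.91, 13.5, 9.23, 14.3 and 13.3 CPM on SPs and 3.39 to 10.9 CPM (median 6.11) on LP day 28, so that SP sample 1 was lower than every LP day 28 sample. HIST1H1D had 1.85 to 4.23 CPM (median 3.89) on SPs and 2.08 to 4.79 CPM (median 4.32) on LP day 28. H1F0, the variant of resting and differentiated cells, had 87.7, 121, 76.5, 129 and 119.9 CPM on SPs and 61.5 to 101 CPM (median 79.7) on LP day 28, a log2 fold change of -0.38 ± 0.15 (FDR 0.275, edgeR's quasi-likelihood test). The H1 genes are close relatives, so reads shared between them are uncertain.

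Ribosomal protein genes without a symbol were mostly lower on LPs. Of 8 tested, 7 were lower on LP day 1, 7 on LP day 7 and 7 on LP day 28, with medians of -0.25, -0.68 and -0.42, beside medians between -0.01 and 0.00 over all genes. Between LP days 1 and 7 all 8 were lower. None was called against SPs by edgeR's quasi-likelihood test. Unadjusted p was under 0.05 for 1, 6 and 4 of them, beside 3.33%, 14.4% and 13.8% of all genes, and DESeq2 called 0, 1 and 1. The study had listed ENSOARG00000017111 for LP day 7 of these samples, and ENSOARG00000000949 and ENSOARG00000003281 for LP day 28. The differences of these genes there are descriptions. ENSOARG00000019935 had 349.9, 368, 275, 352 and 296 CPM on SPs and 218 to 284 CPM (median 256) on LP day 28, where 5 of 6 samples lay under the SP range. ENSOARG00000017111 had 38.9, 57.2, 41.3, 51.5 and 50.2 CPM on SPs and 20.5 to 42.9 CPM (median 27.6) on LP day 7, where again 5 of 6 samples lay under the SP range. Between LP days 7 and 28, 5 of 8 were higher and 3 lower. Genes of this kind have many processed copies in mammalian genomes, and reads shared between copies make single values uncertain.

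**Figure D5:**
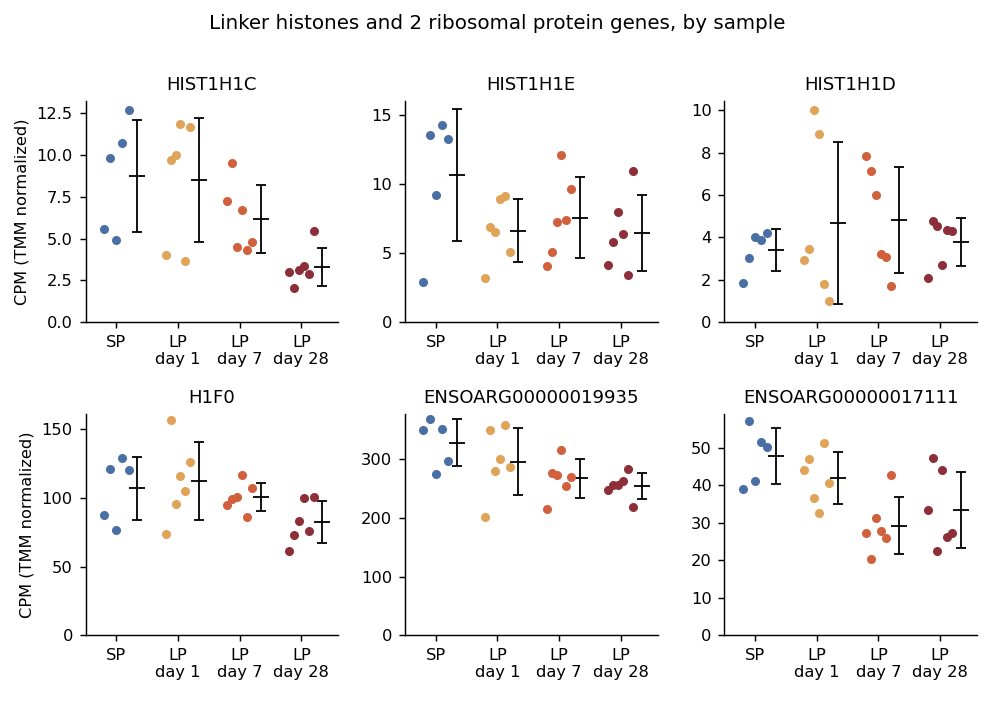
CPM of the 4 linker histone genes and of 2 ribosomal protein genes in every sample by group, with the mean and SD (n = 5 on SPs, n = 6 on each LP day). Each vertical axis is linear and starts at 0. HIST1H1C runs at 2.05 to 5.46 CPM on LP day 28, below 4 of the 5 SP samples.

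The remaining 29 members share no single role, and 20 of 27 tested had lower values on LP day 28, beside 7596 of 14929 genes. Some of them had been listed for that day. UQCC2, an assembly factor of mitochondrial complex III, had 79.2, 118, 80.5, 84.6 and 75.9 CPM on SPs and 54.8 to 114 CPM (median 78.2) on LP day 1. It ran at 55.8 to 72.7 CPM (median 62.8) on LP day 7 and 42.1 to 63.9 CPM (median 58.5) on LP day 28. Both later LP days lay wholly below the SP range, while LP day 1 samples spread over both ranges. UQCC2 thus had a log2 fold change of -0.47 ± 0.12 on LP day 7 and -0.65 ± 0.13 on LP day 28. The call on LP day 28 was lost without SP sample 2 or 4 or LP day 28 sample 1, 2, 3 or 6, and with a single fit of all groups, the number as a block or SP samples 2, 3 and 5 alone, while its log2 fold change ran from -0.72 to -0.52 across the alternatives.

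CPNE9, a copine that binds membranes in response to calcium, was highest on LP day 7. It had 119, 112, 99.0, 108 and 125 CPM on SPs, 109 to 228 CPM (median 154) on LP day 1, 132 to 233 CPM (median 221) on LP day 7 and 70.8 to 236 CPM (median 169) on LP day 28. All LP day 7 samples exceeded all SP samples, and LP day 28 samples spread from below to above the SP range. Its log2 fold change was 0.86 ± 0.13 on LP day 7 and 0.54 ± 0.22 on LP day 28. The call on LP day 7 was lost without SP sample 2 or 4, and with a single fit of all groups or SP samples 2, 3 and 5 alone, while its log2 fold change ran from 0.81 to 0.96 across the alternatives. Groups did not overlap between SPs and LP day 7 for 5 of 137 members, beside 2.04% of all genes, with 4 higher (1.26%) and 1 lower (0.778%).

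BEND7, with a BEN domain of chromatin proteins, also peaked on LP day 7. It had 5.83, 2.71, 5.77, 7.45 and 5.08 CPM on SPs, 4.68 to 10.9 CPM (median 7.56) on LP day 1, 8.32 to 13.4 CPM (median 10.4) on LP day 7 and 6.06 to 8.19 CPM (median 7.23) on LP day 28. All LP day 7 samples lay above all SP samples and all LP day 28 samples. The log2 fold change from LP day 7 to LP day 28 was -0.55 ± 0.19 (FDR 0.539, edgeR's quasi-likelihood test). THEM4, a mitochondrial thioesterase, had 5.03, 3.39, 4.04, 7.45 and 4.51 CPM on SPs. It ran at 6.71 to 12.03 CPM (median 9.76) on LP day 7, with a log2 fold change of 0.96 ± 0.24. Between SPs and LP day 7, DESeq2 called both BEND7 and THEM4, and edgeR's quasi-likelihood test called neither.

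GPRIN1, a G protein target that promotes neurite outgrowth, is a member from the other experiment. It had 69.1, 74.1, 73.9, 73.2 and 75.3 CPM on SPs and 48.9 to 68.6 CPM (median 56.3) on LP day 28. The highest LP day 28 value lay just below the lowest SP value. The log2 fold change of -0.36 ± 0.11 did not pass the threshold in edgeR's quasi-likelihood test (FDR 0.139). KLHL34, a kelch protein, had 6.36, 3.72, 7.50, 4.54 and 5.08 CPM on SPs. It ran at 0.39 to 4.39 CPM (median 0.911) on LP day 28, where sample 1 alone reached the SP range (log2 fold change -1.76 ± 0.46). DESeq2 called KLHL34 on LP day 28, and edgeR's quasi-likelihood test did not. VAT1, a vesicle membrane protein, and BHLHB9, a neuronal protein of the G protein receptor-sorting family, had log2 fold changes of -0.08 ± 0.12 and -0.15 ± 0.20 on LP day 28 (FDR 0.821 and 0.794, same test).

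DDX58, the viral RNA sensor RIG-I, was far higher in single samples than in the rest of their groups. It had 8.48, 11.2, 43.6, 12.3 and 6.49 CPM on SPs and 5.93 to 25.9 CPM (median 12.02) on LP day 1. At LP day 7, sample 3 had 364 CPM and the other 5 samples 5.86 to 10.7 CPM. MX2, an interferon-induced gene that is no member, had 805 CPM in that sample and 88.3 CPM in SP sample 3, the highest values of both genes in their groups. The log2 fold change of 2.03 ± 1.05 on LP day 7 had the largest SE of the members tested in that comparison.

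Of the 146 members, 132 were tested in all 5 comparisons. Of the others, 7 were under the filter in every one, namely F11, the heparan sulfate-cleaving HPSE, the microtubule-binding DCDC2 and 4 genes without a symbol, of which 1 had 0 counts in all 23 samples. Changes in these genes were not detectable at this depth. The means of the members over all samples ran from 0 to 2792 CPM with a median of 13.7, 39 members had a mean under 5 CPM and 14 over 100 CPM.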

How the data were processed

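RNA-seq of PT from 23 samples (5 on SPs, 6 on each of LP days 1, 7 and 28) was taken as deposited, as whole-number read counts per Ensembl sheep gene, 1 file per sample. The authors aligned reads with Bowtie and counted them per gene with HTSeq on the Oar_v3.1 build, per the labels' processing notes, which give no versions here. Whether counting used strand is not given in the sources used here. Groups and sample numbers were taken from the labels, and no genome sequence or coordinates were used.

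Members were taken from the study's annotated gene list and grouped by known role. The members and lists were chosen with earlier results of these data known. Symbols were paired with Ensembl identifiers through the study's gene lists (1259 symbols), so that none of the 5 endothelial and 2 erythrocyte markers sought could be paired. Counts were tested with edgeR 4.0.16 in R 4.3.3 (quasi-likelihood test, TMM over the groups compared, a filter of over 1 CPM in as many samples as the smaller of the groups, or more, Benjamini-Hochberg adjustment over all genes tested). Each SE was obtained by dividing the log2 fold change by the root of its F statistic. Tables and figures were made with Python 3.11.15, pandas 2.3.3, scipy 1.17.1 and matplotlib 3.10.9, and the fits were tested on simulated counts. Intervals of ratios are exact 95% ones.

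Genes named are all called members, up to 3 with a symbol and the highest mean CPM in each role, up to 6 higher and 6 lower on LP day 28 by size of change among those with no overlap with SPs and a mean of at least 2 CPM in a group, all linker histones, VMO1 and BPIFC. Other members named were chosen after their values were seen.

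Alternatives were DESeq2 1.42.0, library-size scaling, no filter, 1 fit of all groups, the sample number as a block, odd or even number as a covariate, SP samples 2, 3 and 5 alone, and each sample left out. Added after seeing the data were CRY1 as a covariate, as log2(CPM + 0.5), and LP day 1 samples 3 and 4 summed. That pair was the closest within any group, with a chi-square of 1.14 per gene where sampling noise alone gives 1, and was kept as 2 samples.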

Additional observations from a re-analysis of the deposited data

Results flagged for a closer look

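For 60 named genes, each group was searched for a highest or lowest sample far from the others by Dixon's criterion. This held in 21 of 240 gene and group pairs (8.75%). Chance gives about 1 in 20 groups, but part of the 60 genes were named for single extreme samples, so the share is not to be read against it.

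SP sample 4 had the highest LCP1 of its group (201 CPM, next 99.3), the highest CCNB2 (2.59 CPM, next 1.15) and KIF15 (2.27 CPM, next 0.577), and the lowest TTYH1 (46.0 CPM, next 99.9). UQCC2 was highest in SP sample 2 (118.5 CPM, next 84.6), and its call on LP day 28 was lost without that sample. STRC was seen only in SP sample 1 (1.06 CPM) among SPs.

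On LP day 1, sample 5 had BPIFC of 1.09 CPM where the others had 0, BCAS1, a protein of myelinating oligodendrocytes, of 101 CPM (next 27.5) and SPON1 of 76.5 CPM, the lowest (next 116). EGFL6 was highest in sample 1 (27.5 CPM, next 1.52), and RLN3 in sample 2 (15.3 CPM, next 5.07).

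On LP day 7, DDX58 was highest in sample 3 (364 CPM, next 10.7), as it was among SPs in sample 3 (43.6 CPM, next 12.3). EGFL6 was highest in sample 4 (8.32 CPM, next 2.03), TTR in sample 5 (89.9 CPM, next 27.6) and AFAP1 in sample 1 (29.0 CPM, next 15.3), and CCNB2 was lowest in sample 5 (0.509 CPM, next 2.32).

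On LP day 28, the leukocyte genes ITGAL and CD6 were highest in sample 5 (32.0 CPM, next 13.5, and 14.5 CPM, next 5.38), TNXB in sample 6 (180.5 CPM, next 149) and KLHL34 in sample 1 (4.39 CPM, next 1.45).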

How the results depend on the processing

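Every value of a called gene kept its direction under every alternative run (80 of 80 values under other settings and 111 of 111 with a sample left out), and 65 and 81 of these values stayed past the threshold. Of the values of named genes not called, 41 of 1142 and 123 of 1629 changed sign. No member was called between SPs and LP day 1 under any alternative.

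Between SPs and LP day 7 (2 members called), DESeq2 called 14, the odd or even covariate 13 and SP samples 2, 3 and 5 alone 0, and leaving out a sample gave 1 (without SP sample 2) to 5 (without LP day 7 sample 6). Between SPs and LP day 28 (7 called), DESeq2 called 15 and the odd or even covariate 11, and leaving out a sample gave 4 (without LP day 28 sample 6) to 9 (without sample 4). Between LP days 1 and 7 (1 called), summing samples 3 and 4 of LP day 1 gave 0, and leaving out a sample gave 0 to 1. Between LP days 7 and 28 (0 called), DESeq2 called 2, and no filter, the single fit, the odd or even covariate and the CRY1 covariate 1 each, and leaving out a sample gave 0 to 1. The cause of these differences was not tested.

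Same-numbered samples did not deviate together on average (mean correlation -0.04 to 0.07 over the 5 comparisons, with single pairs up to 0.263). This cannot settle whether the numbers carry a shared design factor, as odd and even numbers separated CRY1 and EYA3 on LP days 7 and 28. With the number as a block, 4 members were called between SPs and LP day 7, 3 between SPs and LP day 28 and 1 between LP days 7 and 28.

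Depth limits genes of few counts, as 39 members had a mean under 5 CPM and 3 counts stand at 9.74 CPM in LP day 1 sample 4.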

Other observations

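Some members are close neighbors in the RefSeq gene order of the newer ARS-UI_Ramb_v3.0 sheep assembly, in which 108 of the members were found by symbol. VMO1 and CXCL16 have 2 protein-coding genes between them, and ICAM3 and ICAM5 have 3. FGB and DCHS2 have 1 between them, KIAA0319 and DCDC2 have 4, and AK5 and GIPC2 have 7. The neighbors VMO1 and CXCL16 differed in pattern on LP day 7, where VMO1 was higher in even-numbered samples and CXCL16 in odd-numbered ones.

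Between LP days 7 and 28, secreted members had values in both directions, with 12 of 18 tested higher, 6 lower and a median log2 fold change of 0.31, beside 0.00 over all genes. Unadjusted p was under 0.05 for 7 of the 18 (7.13% of all genes) in edgeR's quasi-likelihood test and 0 passed the FDR threshold, while DESeq2 called LUZP2 and VMO1. C16orf89, a secreted protein first known from thyroid, ran at 9.13 to 33.96 CPM (median 17.9) on LP day 7 and 26.4 to 53.0 CPM (median 39.5) on LP day 28, a log2 fold change of 0.94 ± 0.26 (FDR 0.372, edgeR's quasi-likelihood test). The microtubule, cilia and division genes had 2 of 13 higher and 11 lower in the same step, with a median of -0.23, and the 4 linker histones were all lower, with a median of -0.33.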
